A study of Mus musculus with 2 samples.

Results

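The chemokines Ccl2, Ccl7, Cxcl1, Cxcl5, Cxcl12, Cxcl14 and Cx3cl1 and the cytokine Il6 were followed in cultured progenitors of white and brown fat. These 8 genes form a list set by name, 8 of the 32285 genes in the count matrices, and the rule uses no measured value. The list was, however, chosen with earlier results of these data known. Counts of its members past 2-fold, set beside the share of all genes, are therefore descriptions and not tests of the list. The study cultured the stromal vascular fraction of C57/BL6J pups of both sexes, aged P0 by the labels and P1 by the study's methods, from the subcutaneous white depot (WAT) and the interscapular brown depot (BAT), until the dishes were confluent after 4 days. Cells of each depot went into 1 droplet library from pooled pups, neither depot was treated, and sex was not separated. The groups are therefore a white and a brown primary culture, each measured once.

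Chemokines are small secreted proteins that bind receptors on other cells and direct their migration. Ccl2 and Ccl7 attract monocytes through Ccr2, Cxcl1 and Cxcl5 attract neutrophils through Cxcr2, and Cxcl12 retains stem and immune cells through Cxcr4 and is cleared by Ackr3. Cx3cl1 is made as a membrane-bound protein for Cx3cr1, Cxcl14 is made by many stromal and epithelial cells, and Il6 signals through Il6ra together with the shared subunit Il6st. Fibroblastic progenitors of adipose tissue are a known source of Ccl2, Cxcl12 and Il6, and NF-kB, whose inhibitor gene Nfkbia is itself a target, is a well-known activator of Ccl2, Cxcl1 and Il6.

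The members lie at chr11:82035571-82037453 and chr11:82045712-82047525, 8258 bases apart on chromosome 11, at chr5:90759360-90761624, chr5:90891241-90893115 and chr5:30013114-30019981 on chromosome 5, at chr6:117168535-117181367, at chr8:94772009-94782427 and, on the minus strand, at chr13:56288643-56296551 (GRCm38, GENCODE M21). All 8 are protein-coding. Of the 8, Ccl2 alone overlaps another counted gene, Gm17268 on the opposite strand. RefSeq-based promoter windows were given for 5 members, namely Cxcl1, Cxcl12, Cxcl14, Cx3cl1 and Il6. The 150 bases before the start are shown for 4 of them and for Nfkbia. These genes were picked because across cells Cxcl1 and Nfkbia went with Ccl2 while Cxcl12 and Cxcl14 did not. Il6 went with Ccl2 only weakly, at a Pearson's r of 0.12 in WAT and 0.07 in BAT. With Nfkbia its r was 0.03 in WAT and 0.03 in BAT. Capitals mark the NF-kB type motif, GGGA then any base then TTTCC, searched on both strands, in GRCm38.p6 and in the direction of transcription.
Cxcl1 (chr5:90891095-90891244, plus strand): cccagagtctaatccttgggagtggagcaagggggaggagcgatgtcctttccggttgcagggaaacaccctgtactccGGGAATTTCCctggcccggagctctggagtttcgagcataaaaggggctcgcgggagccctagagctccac
Il6 (chr5:30012964-30013113, plus strand): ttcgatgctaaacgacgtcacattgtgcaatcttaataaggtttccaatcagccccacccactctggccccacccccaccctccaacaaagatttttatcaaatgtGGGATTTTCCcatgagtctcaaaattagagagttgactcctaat
Nfkbia (chr12:55492648-55492797, minus strand): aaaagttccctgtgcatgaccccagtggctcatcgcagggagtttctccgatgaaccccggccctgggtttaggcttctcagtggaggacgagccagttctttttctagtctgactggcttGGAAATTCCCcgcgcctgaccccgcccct
Cxcl12 (chr6:117168385-117168534, plus strand): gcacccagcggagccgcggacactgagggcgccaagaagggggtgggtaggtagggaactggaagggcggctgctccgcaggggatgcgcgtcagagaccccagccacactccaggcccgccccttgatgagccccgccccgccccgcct
Cxcl14 (chr13:56296552-56296701, minus strand): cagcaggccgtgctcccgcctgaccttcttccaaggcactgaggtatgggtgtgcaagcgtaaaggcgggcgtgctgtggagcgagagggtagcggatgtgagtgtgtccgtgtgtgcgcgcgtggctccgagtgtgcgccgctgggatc
The motif began 71 bases before the start of Cxcl1 as GGGAATTTCC and 44 bases before the start of Il6 as GGGATTTTCC. In Nfkbia it lay on the opposite strand, read here as GGAAATTCCC, from 29 bases before the start. No match lay in the 300-base windows of Cxcl12, Cxcl14 and Cx3cl1, while 135 of 32851 mouse promoter windows (0.411%) held one. The AP-1 motif TGANTCA was found in Il6 alone among the 5 members, as TGAGTCA 249 bases before the start, and stood in 7.81% of all windows. The motif TATAAA lay 6 bases before the start of Cx3cl1 and in 13.6% of all windows. A match is a run of letters and not a measured binding site, and a window without a match says nothing more than that. Windows of Ccl2, Ccl7 and Cxcl5 were not used here.

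The cell filters of the study's methods left 4407 WAT and 6137 BAT cells, with 4331 and 5958 precursors, 29 and 78 myeloid cells, 47 and 68 glial cells and, in BAT only, 33 myogenic cells. The libraries shared 9 barcodes. Precursors held a median of 26949 UMIs per cell in WAT and 26413 in BAT. The labels' precursor identity was met by all 7 precursor markers, Pdgfra and Dcn among them, at 10 CPM or more in both depots. The study's cluster names were read for 46.2% of WAT and 33.6% of BAT precursors from a copy of its source data that may be shortened. They are 4 white and 5 brown adipose progenitor clusters (wAPC 1 to 4, bAPC 1 to 5), committed adipogenic progenitors (wCAPs, bCAPs), fibro-adipogenic progenitor-like cells (wFAPLs, bFAPLs) and 15 differentiating wFAPLs. Levels are in CPM, the UMIs of a gene per 1000000 UMIs of the cell group, each transcript counted once at its 3′ end so that gene length does not enter, with an exact 95% Poisson interval in parentheses. With 1 library per depot no test was possible, all intervals cover counting error only, and depot, culture and library cannot be told apart. The clusters were made from expression of the same cells, so differences between them are descriptions.

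Precursors, 98.3% of filtered WAT and 97.1% of filtered BAT cells, held most UMIs of every member. Of all Ccl2 UMIs in filtered cells, precursors held 94.7% in WAT and 91.9% in BAT, and myeloid cells 5.13% and 7.59%. For Ccl7 the precursor share was 96.2% and 95.2%, and for the other 6 members it ran from 98.0%, for Cxcl14 in BAT, to 100%, for Il6 and Cx3cl1 in WAT. Ccl2 and Ccl7 were thus the members to which the few myeloid cells added more than their number. Cxcl12, Ccl2 and Ccl7 stood far above the rest in precursors of both depots. Cxcl12 led with 269 (266 to 272) in WAT and came after Ccl2 in BAT at 168 (166 to 170.1). Cxcl5, Cxcl1 and Cxcl14 formed a middle group between 10.1 and 42.2. Il6 and Cx3cl1 were the rarest, between 3.43 and 9.83.

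Between the depots no member passed 2-fold among the 6 that reached 10 CPM in either depot, and 1.84% of all 9037 genes at that level did (1.11% higher and 0.73% lower in WAT). Cxcl5 and Cxcl12 came nearest. Cxcl5 was at 42.2 (41.0 to 43.4) in WAT and 23.0 (22.3 to 23.8) in BAT, a log2 ratio of 0.87 (0.81 to 0.93). Cxcl12 had a log2 ratio of 0.68 (0.65 to 0.70). Both stood higher in WAT. Ccl2 leaned to WAT by less, at 216 (214 to 219) against 183 (181 to 185), a log2 ratio of 0.24 (0.22 to 0.27), and Ccl7, its neighbour on the chromosome, leaned to BAT, at 125 (123 to 127) against 146 (145 to 148) (-0.23, -0.26 to -0.20). Cxcl1 leaned to BAT (-0.41, -0.48 to -0.34) and Cxcl14 differed little (0.19, 0.09 to 0.30). The members under the minimum of 10 both stood higher in BAT. Cx3cl1 was at 3.43 (3.11 to 3.78) in WAT and 8.09 (7.66 to 8.53) in BAT, a log2 ratio of -1.24 (-1.40 to -1.08), the largest of any member. Il6 was at 6.47 (6.03 to 6.93) and 9.83 (9.37 to 10.3) (-0.60, -0.73 to -0.48). Over all 9037 genes the median log2 ratio was 0.04, and over the 6 members at that level it was 0.22.

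**Figure D1:**
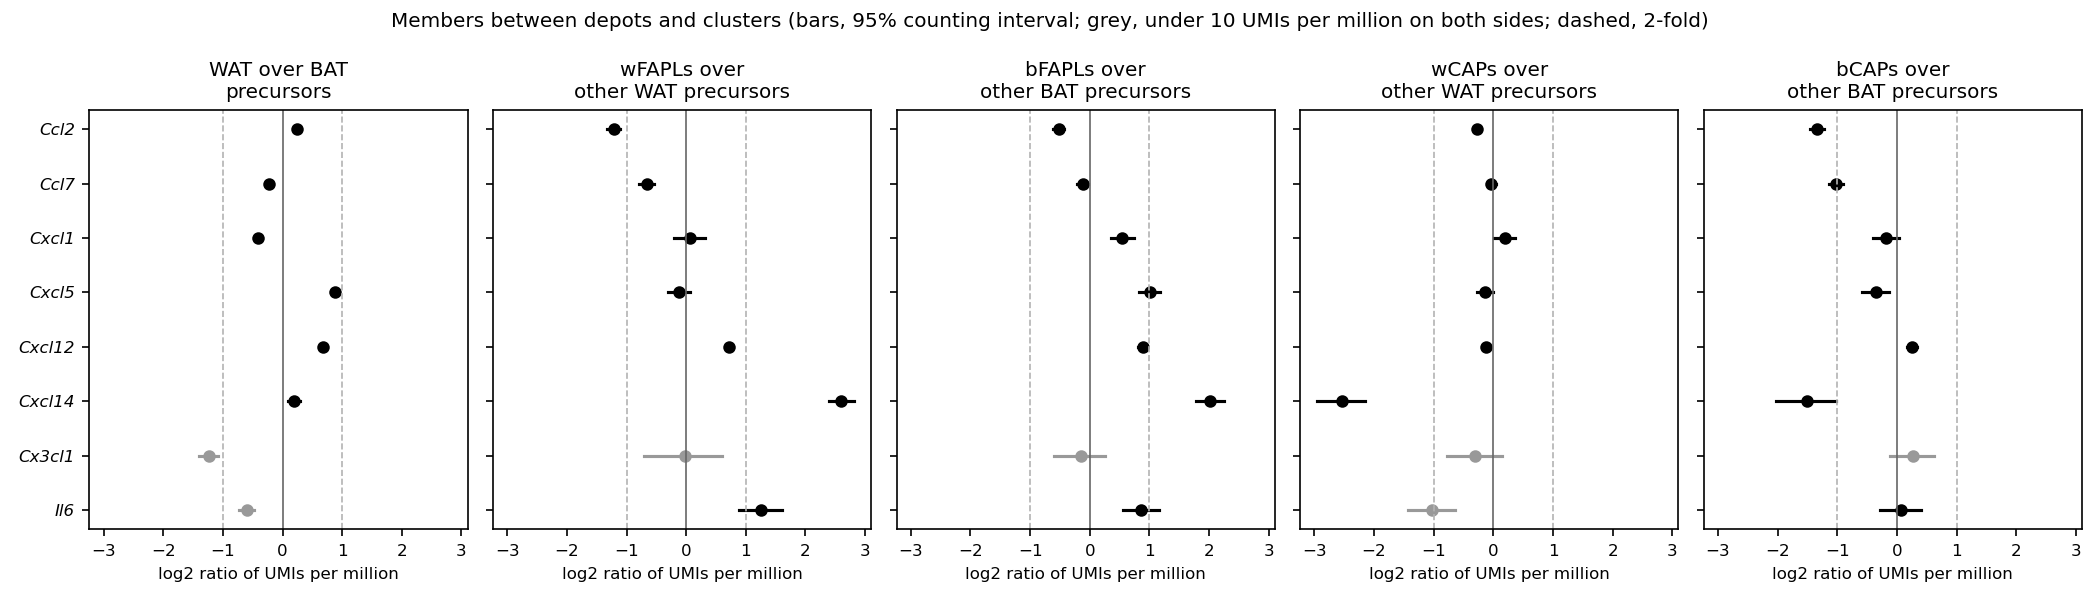
Log2 ratios of CPM for the 8 members in 5 comparisons, with 95% counting intervals as bars, members under 10 CPM on both sides in grey and dashed lines at 2-fold. Cxcl14 lay at 2.60 in wFAPLs and at -2.54 in wCAPs, the extremes of the plot.

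The monocyte chemokines Ccl2 and Ccl7 were highest in APC clusters of both depots. In WAT, Ccl2 reached 311 (302 to 319.9) in wAPC 1 and 304 (292 to 316) in wAPC 2, whose intervals overlapped, followed by 181 (175 to 187) in wCAPs and 161 (142 to 181) in wAPC 4. It was at 95.8 (88.8 to 103) in wFAPLs and lowest, at 76.7 (70.1 to 83.7), in wAPC 3, so that the highest of the 6 larger white clusters was 4.05 times the lowest. In BAT, bAPC 2 led with 277 (268 to 286), and bAPC 3, bAPC 4 and bAPC 1 followed at 206, 206 and 197 with overlapping intervals. The low end of BAT was held by bAPC 5 at 141, bFAPLs at 136 and bCAPs at 80.9 (74.9 to 87.3). Ccl7 followed the same leaders. It was highest in wAPC 1 at 157 (151 to 164) and in bAPC 2 at 221 (213 to 230.0). The other white clusters descended from 121 in wAPC 2, 115 in wCAPs, 96.0 in wAPC 4 and 83.2 in wAPC 3 to 77.7 in wFAPLs, and each of these neighbours overlapped the next. In BAT, bAPC 4 (175), bAPC 1 (155), bFAPLs (142), bAPC 3 (108) and bAPC 5 (108) lay between the leader and bCAPs at 80.7 (74.7 to 87.1).

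The neutrophil chemokines Cxcl1 and Cxcl5 had different leaders in the depots. Cxcl5 stood out in wAPC 2 at 109.5 (102 to 117), against 37.0 in wCAPs, 36.8 in wFAPLs, 25.7 in wAPC 3, 18.9 in wAPC 4 and 16.4 (14.4 to 18.7) in wAPC 1. The wAPC 1 and wAPC 2 clusters, alike in Ccl2, were thus 6.67 times apart in Cxcl5. A single cell held 183 of the 850 UMIs in wAPC 2, which without it was at 86.6. In BAT, bFAPLs were at 48.6 (43.7 to 53.8), with 112 of 366 UMIs in 1 cell and a level of 33.9 without it. Then bAPC 3, bAPC 2, bAPC 1 and bCAPs lay between 22.2 and 28.8 with overlapping intervals, where 1 cell held 74 of the 126 UMIs of bAPC 3, which was at 12.0 without it. The clusters bAPC 5 and bAPC 4 were both near 12.0. Cxcl1 varied less. In WAT it ran from 23.8 (20.5 to 27.5) in wAPC 2 through wCAPs (20.9), wFAPLs (19.9), wAPC 3 (18.1) and wAPC 1 (16.1), neighbours that overlapped, to 7.07 (3.65 to 12.4) in wAPC 4. In BAT, bFAPLs were at 37.4 (33.2 to 42.0), above bAPC 1 (28.9), bAPC 2 (28.1), bCAPs (24.3), bAPC 3 (23.7), bAPC 5 (17.3) and bAPC 4 (16.1), whose neighbouring intervals overlapped. In bFAPLs 59 of 282 UMIs came from 1 cell, and without it their level was 29.8, close to the 27.0 of bAPC 1 when that cluster's highest cell was left out too.

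Cxcl12 and Cxcl14, the homeostatic chemokines of the list, were highest in FAPLs of both depots. Cxcl12 reached 397 (383 to 412) in wFAPLs and 385 (371 to 399) in wAPC 2, with overlapping intervals, and was at 252 in wAPC 3, 246 in wCAPs, 171 in wAPC 1 and 119.6 in wAPC 4. In BAT it fell in level from 277 (265 to 289) in bFAPLs to 195 in bAPC 5, 193 in bCAPs, 173 in bAPC 3, 138 in bAPC 1, 129 in bAPC 2 and 119 in bAPC 4, and among the last 3 each overlapped its neighbour. Cxcl14 was at 47.4 (42.5 to 52.7) in wFAPLs and at 3.04 (2.32 to 3.92) in wCAPs, 15.6 times apart, with wAPC 1 (14.8), wAPC 3 (9.07), wAPC 4 (8.84) and wAPC 2 (5.93) between. Without the 1 cell that held the most Cxcl14 UMIs of wAPC 1, the level of that cluster was 7.81. In BAT it was at 32.8 (28.8 to 37.1) in bFAPLs, 21.7 (16.9 to 27.4) in bAPC 5 and 4.39 (3.07 to 6.08) in bCAPs, with the other 4 clusters from 6.37 to 8.59. Cxcl14 UMIs were found in 40.6% (34.6 to 46.9) of wFAPLs and 26.2% (21.1 to 31.7) of bFAPLs.

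Il6 and Cx3cl1 were low everywhere. Among the 6 larger white clusters, Il6 was highest in wAPC 4 at 14.7 (9.53 to 21.7) and wFAPLs at 12.6 (10.1 to 15.4), whose intervals overlapped, and was at 8.37 in wAPC 2, 5.64 in wAPC 1, 3.66 in wCAPs and 2.31 (1.29 to 3.80) in wAPC 3, each overlapping the next. In BAT it ran from 16.3 (13.6 to 19.5) in bFAPLs, 14.9 in bAPC 5 and 13.5 in bAPC 3 through bCAPs (10.4), bAPC 2 (9.34) and bAPC 4 (8.59) to 5.94 (4.86 to 7.19) in bAPC 1, and each neighbour overlapped the next. Cx3cl1 had a single cluster apart from the rest. It was at 15.3 (10.0 to 22.4) in the 62 cells of wAPC 4, on 26 UMIs, while the other 5 larger white clusters lay between 2.32 and 3.69. In BAT the 7 clusters lay between 4.96 in bAPC 5 and 9.87 in bAPC 4, and the intervals of all neighbours overlapped. The 15 differentiating wFAPLs held 21 UMIs of Cxcl12, a level of 44.0 (27.3 to 67.3), and no UMI of Cxcl14, which allows a level of up to 6.29. Their mural markers summed to 27434 CPM, against 3649 in all WAT precursors, and they stood apart from the other white clusters in this. Their Il6, 8 UMIs in all, was at 16.8 (7.24 to 33.1). Of their 54 Ccl2 UMIs, at 113 (85.1 to 148), 50 came from 1 cell. Ccl7 was at 65.0, Cxcl1 at 16.8, Cxcl5 at 4.19 and Cx3cl1 at 2.10 in these 15 cells, on 31, 8, 2 and 1 UMIs.

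**Figure D2:**
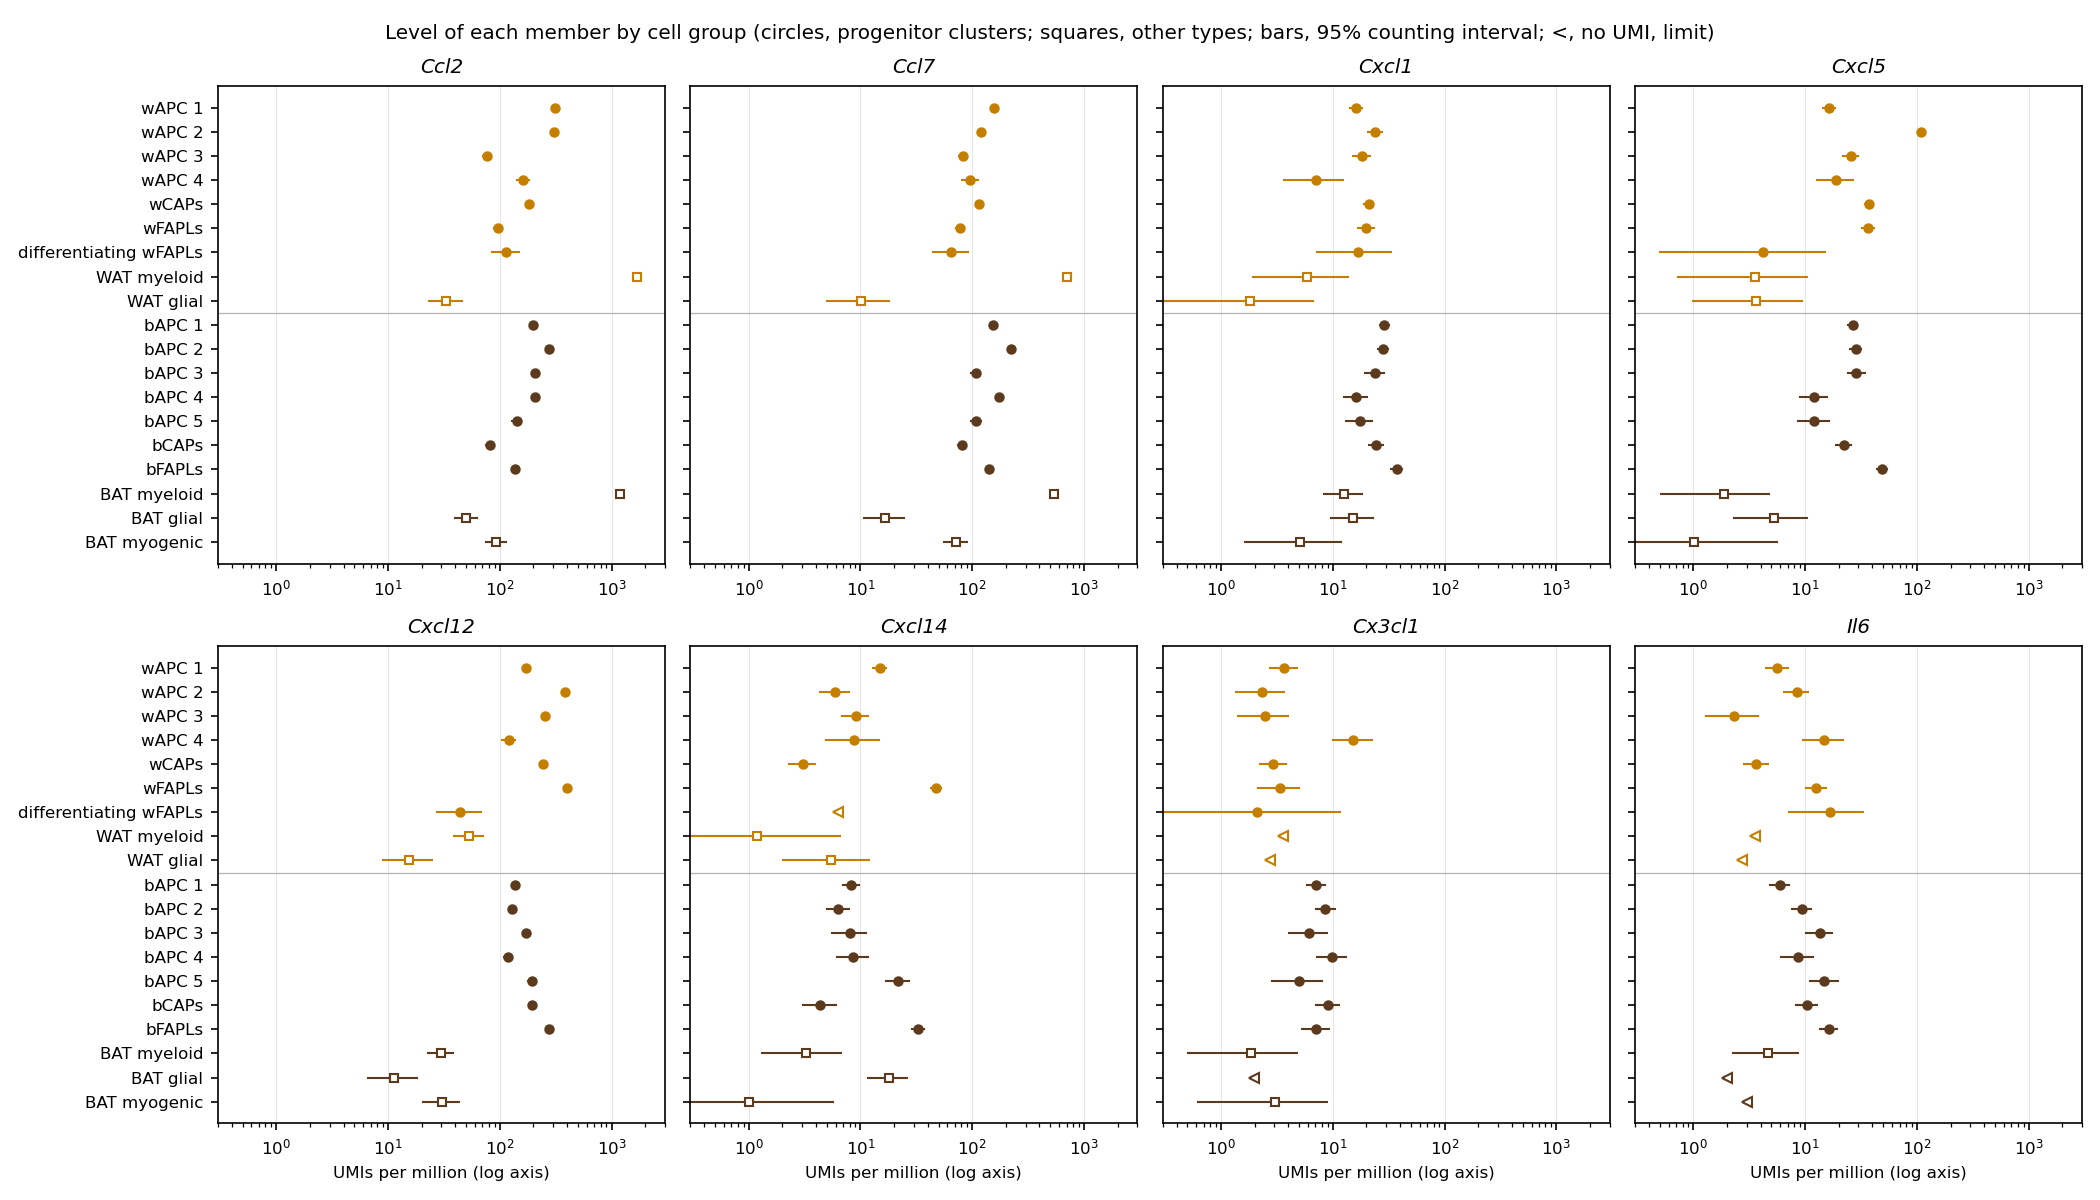
CPM on a log axis for each member (panels) in the progenitor clusters (filled circles) and the myeloid, glial and myogenic cells (open squares) of WAT and BAT, with 95% counting intervals as bars that end at the left edge where they run past it. A left-pointing triangle marks a group with no UMI at the limit of 3 counts, and the myeloid squares stand above every progenitor cluster for Ccl2 and Ccl7 and not for the other 6 members.

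Set against all other labelled precursors of their depot, wFAPLs were past 2-fold higher for 2 of the 7 members at 10 CPM or more (1.94% of all genes were) and lower for 1 (1.18%), and bFAPLs were higher for 2 of 7 (1.93%) and lower for none (1.05%). Cxcl14 was the member past 2-fold in both, with log2 ratios of 2.60 (2.39 to 2.82) and 2.02 (1.79 to 2.26). The study had already named Cxcl14 among the genes by which it described wFAPLs, so the white result restates a marker of that cluster. Il6 passed in wFAPLs at 1.25 (0.89 to 1.60) and stood at 0.87 (0.57 to 1.16) in bFAPLs. Cxcl5 stood on the 2-fold line in bFAPLs, at 1.00 (0.83 to 1.17), and without the cell with the most UMIs on each side it was at 0.60 and no longer past it. The ratio of Cxcl5 was at -0.12 (-0.31 to 0.07) in wFAPLs. Ccl2 was the lower member in wFAPLs, at -1.21 (-1.33 to -1.10), and was at -0.52 (-0.62 to -0.43) in bFAPLs, and Cxcl12 was at 0.73 (0.67 to 0.78) and 0.89 (0.82 to 0.96). The labelled wFAPLs hold 1 cell with 306 UMIs of the 10 myeloid markers, where the next highest wFAPL has 3, and without cells holding 2 or more of these markers the same members stayed past 2-fold. Against each other, wFAPLs and bFAPLs did not pass 2-fold for any of 7 members, and 1.69% of all genes did. Ccl7 and Cxcl1 stood higher in bFAPLs with log2 ratios of -0.87 (-1.02 to -0.72) and -0.91 (-1.21 to -0.61), and Cxcl12 and Cxcl14 higher in wFAPLs, with 0.52 (0.44 to 0.60) and 0.53 (0.29 to 0.78).

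CAPs, the committed progenitors of the adipogenic lineage, were lower in Cxcl14 in both depots. The count past 2-fold was 0 of 6 higher (0.617% of all genes) and 1 of 6 lower (0.683%) in wCAPs, and 0 of 7 higher (1.42%) and 3 of 7 lower (0.816%) in bCAPs. Cxcl14 had log2 ratios of -2.54 (-2.95 to -2.16) and -1.50 (-2.03 to -1.02). In bCAPs Ccl2 (-1.34, -1.46 to -1.23) and Ccl7 (-1.02, -1.14 to -0.91) were lower as well, with Ccl7 close to the 2-fold line and no longer past it once cells with 2 or more myeloid markers were left out. In wCAPs Ccl2 and Ccl7 were at -0.28 (-0.33 to -0.22) and -0.03 (-0.11 to 0.04). Il6 was at -1.03 (-1.43 to -0.65) in wCAPs, with both sides under 10, and at 0.07 (-0.28 to 0.41) in bCAPs. Cxcl12 lay on opposite sides of 0 in CAPs of the depots, at -0.12 (-0.17 to -0.07) in wCAPs and 0.25 (0.17 to 0.33) in bCAPs. Direct comparison of wCAPs with bCAPs put 1 of 6 members higher (2.18%) and 1 lower (2.14%). Ccl2 was at 181 in wCAPs and 80.9 in bCAPs, a log2 ratio of 1.16 (1.04 to 1.29). Il6 was at 3.66 and 10.4, a log2 ratio of -1.50 (-1.98 to -1.03).

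Myeloid cells split the list. Ccl2 and Ccl7 were higher in them than in precursors and Cxcl1, Cxcl5, Cxcl12 and Cxcl14 lower, in both depots, so 2 of 6 members were past 2-fold higher and 4 of 6 lower. Myeloid cells and precursors differed widely in general, with 18.7% of genes higher and 20.9% lower in WAT and 16.4% and 18.2% in BAT. Ccl2 was at 1703 (1616 to 1793) in WAT and 1201 (1155 to 1248) in BAT myeloid cells, log2 ratios of 2.98 (2.90 to 3.05) and 2.71 (2.65 to 2.77). Ccl7 was at 711 (655 to 770.4) and 536 (506 to 568), log2 ratios of 2.51 (2.39 to 2.62) and 1.87 (1.79 to 1.96). All 29 WAT and 98.7% of BAT myeloid cells held a Ccl2 UMI. Cxcl12 was at 53.2 (38.8 to 71.3) and 29.5 (22.7 to 37.7), and 38 of its 45 UMIs in WAT came from 1 cell, without which its level was 8.69. The other CXC members were close to their limits of counting. Cxcl5 was at 3.55 (0.732 to 10.4) and 1.87 (0.510 to 4.80), on 3 and 4 UMIs, and Cxcl14 at 1.18 (0.0300 to 6.59) and 3.28 (1.32 to 6.75), on 1 and 7. Cxcl1 was nearer to precursors, at 5.92 (1.92 to 13.8) and 12.6 (8.33 to 18.4). Il6 and Cx3cl1 had no UMI in WAT myeloid cells, which allows up to 3.55, and 10 and 4 UMIs in BAT, levels of 4.68 (2.25 to 8.61) and 1.87 (0.510 to 4.80). Between WAT and BAT myeloid cells 0 of 4 members were past 2-fold higher (3.14% of genes) and 1 of 4 lower (4.71%), namely Cxcl1 on 5 and 27 UMIs.

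The level of Ccl2 in precursors was 12.7% of that in myeloid cells in WAT and 15.2% in BAT, and that of Ccl7 17.6% and 27.3%. The 10 myeloid markers reached in precursors a median of 0.0391% of their myeloid level in WAT and 0.0489% in BAT, and at most 1.46% and 1.43%, for Csf1r. Their summed level was between 7.07 and 50.6 CPM across the white clusters and between 11.9 and 18.0 across the brown ones. Ptprc and Tyrobp were at 0.0732 and 0.456 in WAT precursors. The myeloid chemokines Pf4 and Ccl4 stood in precursors at 0.0442% and 0.0124% of their myeloid level in WAT. The part of RNA from other cells in the Ccl2 and Ccl7 of precursors was not tested.

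Shares of cells with a UMI differed strongly between members. They are set beside the shares in glial cells, which held medians of 20672 UMIs in WAT and 19494.5 in BAT. Glial UMIs may be free RNA or transcripts of the glial cells themselves, and which of these they are was not tested. Cxcl12 was found in 85.7% (84.6 to 86.7) of WAT and 78.5% (77.4 to 79.5) of BAT precursors, and in 21.3% and 13.2% of glial cells. Ccl2 was found in 48.8% (47.3 to 50.3) and 49.6% (48.4 to 50.9) of precursors and in 27.7% and 32.4% of glial cells. Ccl7 was found in more cells than Ccl2 at a lower level, 56.8% (55.3 to 58.3) and 63.1% (61.9 to 64.3), with 14.9% and 8.82% in glial cells. Il6 was found in 12.1% (11.2 to 13.2) and 18.1% (17.2 to 19.1) of precursors and in 0 of 47 and 0 of 68 glial cells, which allows shares of up to 6.38% and 4.41%. Cx3cl1 was likewise at 0 in glial cells and in 8.45% and 18.2% of precursors. Cxcl1 was in 18.1% and 23.5% of precursors against 2.13% and 7.35% of glial cells, and Cxcl5 in 22.0% and 14.3% against 8.51% and 7.35%. Cxcl14 was the exception. It was in 12.3% and 12.8% of precursors and in 12.8% and 25.0% of glial cells. In BAT its level was also higher in glial cells, at 17.9 (11.8 to 26.0), than in precursors (10.1). Glial cells could therefore not serve as a background for Cxcl14 there. Whether its overall share in precursors lay above free RNA was not tested. With every cell thinned to 10000 UMIs the precursor shares were 69.2% and 58.7% for Cxcl12, 36.6% and 35.1% for Ccl2, 39.4% and 45.1% for Ccl7 and 4.99% and 8.32% for Il6. For Cxcl14 they were 25.8% of wFAPLs and 17.9% of bFAPLs, against 2.13% and 11.8% of glial cells. In the 33 myogenic cells of BAT, 92 Ccl2 UMIs were counted, of which 79 came from 1 cell.

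Expression was uneven from cell to cell. The 1% of WAT precursors with the most Ccl2 held 17.8% of its UMIs, up to 249 in a cell, and in BAT the share was 20.7%, up to 265. Cxcl5 and Cxcl14 were the most concentrated. Their top 1% of cells held 35.7% and 44.9% of Cxcl5 and 40.0% and 34.0% of Cxcl14 UMIs. Cxcl12 was the most even of the abundant members, at 9.74% and 9.57%. In cells thinned to 10000 UMIs the variance of Ccl2 was 13.5 times its mean in WAT and 13.5 times in BAT, where counting alone gives 1. The same ratio was 6.21 and 4.50 for Cxcl12, 1.52 and 1.48 for Il6, and 1.01 and 1.10 for Cx3cl1. By labels carried over from labelled neighbours, wFAPLs were 63.6% of the 44 WAT cells highest in Cxcl14 and 11.8% of all precursors.

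**Figure D3:**
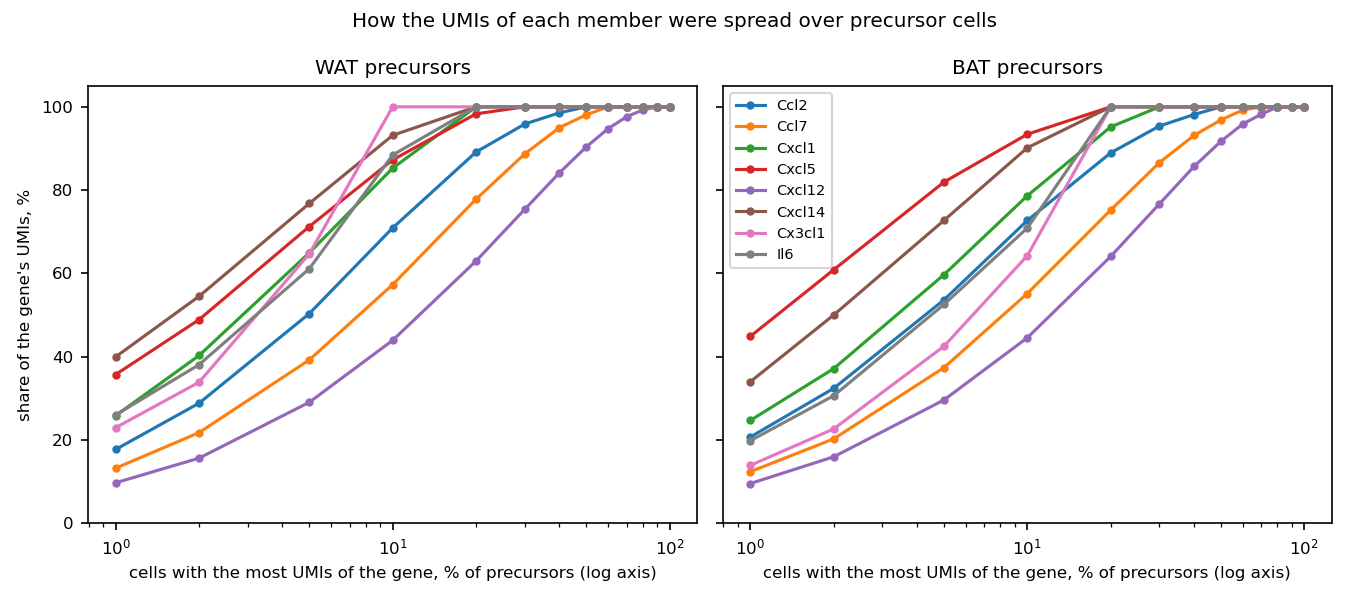
Share of the UMIs of each member (y axis, %) held by the precursor cells with the most of them (x axis, % of cells, log scale), for WAT and BAT. At 1% of cells the curves start between 9.74% for Cxcl12 and 40.0% for Cxcl14 in WAT and between 9.57% for Cxcl12 and 44.9% for Cxcl5 in BAT.

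In cells, 4 of the 8 members moved together. Across 4331 WAT and 5958 BAT precursors, Pearson's r of log-normalized counts was above 0.1 in both depots for 7 of the 28 pairs. Of these, 6 are all the pairs among Ccl2, Ccl7, Cxcl1 and Cxcl5, and the seventh is Cxcl1 with Il6. The share of all gene pairs above 0.1 was not counted, so this count describes the members only. Ccl2 and Ccl7 had r of 0.67 in WAT and 0.64 in BAT. Cxcl1 followed Ccl2 at 0.29 and 0.31, and Cxcl5 followed Ccl2 at 0.33 and 0.23. Il6 was weakly tied, at 0.11 and 0.11 with Cxcl1. Cxcl12 was not part of the set, with r between -0.05 and 0.09 to every other member. Subtracting cluster means left Ccl2 with Ccl7 at 0.66 and 0.63 and Ccl2 with Cxcl1 at 0.30 and 0.32. In thinned cells, Ccl2 with Ccl7 was at 0.58 and 0.56, while Cxcl1 with Il6 fell under 0.1, to 0.07 and 0.07. All cells of a depot share 1 library, so these values describe cells of that library.

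**Figure D4:**
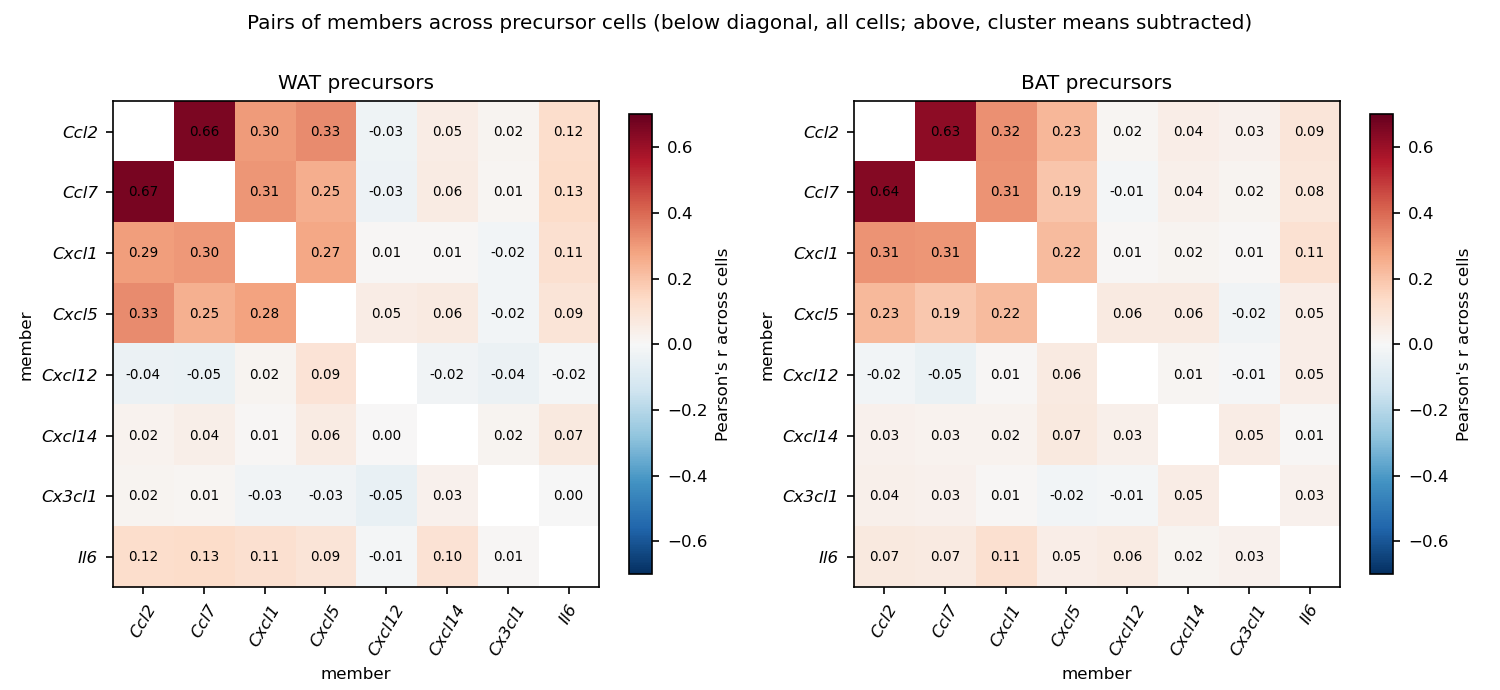
Pearson's r between members across precursor cells of WAT and BAT, below the diagonal in all cells and above it with cluster means subtracted. The block of Ccl2, Ccl7, Cxcl1 and Cxcl5 holds the higher values in both depots, with Ccl2 and Ccl7 at 0.67 and 0.64.

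Precursors of the same libraries were also grouped by their own Ccl2 after thinning to 10000 UMIs. This shows the association above in another form and is not separate support. Of WAT precursors, 2745 had no Ccl2 UMI, 1306 had 1 to 9 and 279 had 10 or more, and of BAT precursors 3867, 1796 and 295. Ccl7 went from 43.8 to 186 and 529 CPM over these groups in WAT and from 60.4 to 225 and 644 in BAT. Cxcl1 went from 10.2 to 28.8 and 64.5 in WAT and from 15.7 to 35.3 and 109 in BAT. Cxcl5 went from 19.1 to 56.0 and 187 in WAT and from 12.2 to 31.1 and 113 in BAT. These 3 chemokines climbed in both depots. Il6 climbed less, from 4.41 to 16.1 in WAT and from 9.75 to 17.6 in BAT between the outer groups. Between the same groups Cx3cl1 went from 7.73 (6.88 to 8.66) to 13.6 (9.69 to 18.5) in BAT. In WAT it went from 3.13 to 3.94, with overlapping intervals. Cxcl14 went from 11.5 to 16.5 in WAT and from 9.72 to 14.2 in BAT, with overlapping intervals in each depot. Cxcl12 did not climb, at 298 against 247 in WAT and 178 against 166 in BAT, where the intervals of these groups overlapped. Nfkbia, which encodes the NF-kB inhibitor, went from 42.1 to 139 in WAT and from 50.3 to 142 in BAT. Rises differed among the listed NF-kB genes. Nfkbiz went from 46.0 to 64.2 in WAT and from 36.9 to 53.6 in BAT. Zc3h12a went from 5.76 to 24.7 in WAT and from 8.28 to 29.8 in BAT. A part of NF-kB in these associations was not tested.

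**Figure D5:**
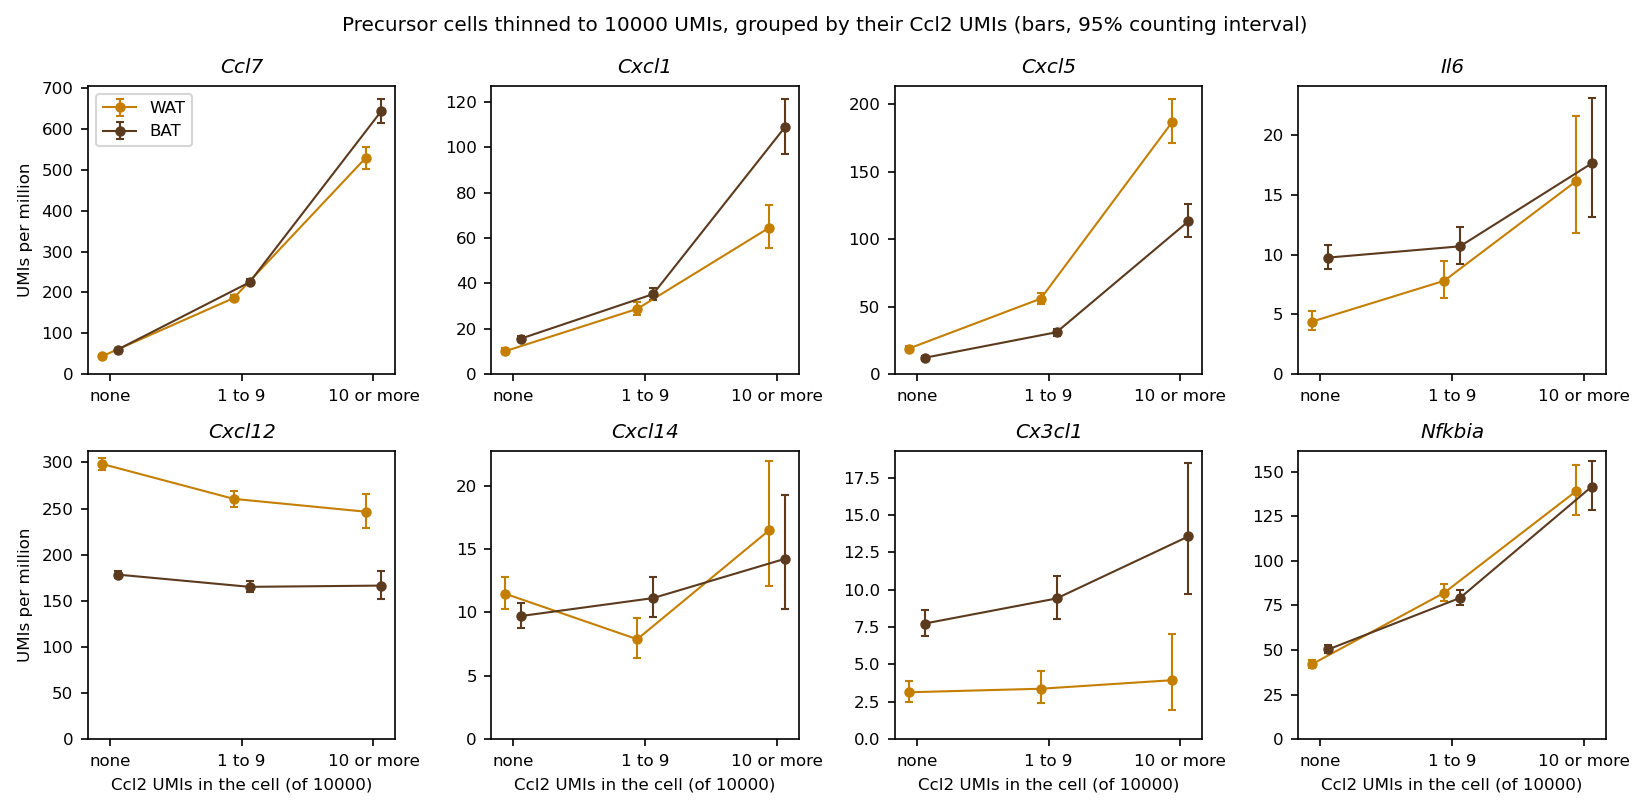
CPM (y axis) of 7 members and Nfkbia in precursors thinned to 10000 UMIs and grouped by their Ccl2 UMIs (x axis), for WAT and BAT, with 95% counting intervals as bars. Ccl7, Cxcl1, Cxcl5 and Nfkbia climb over the groups in both depots, and Cxcl12 goes from 298 to 247 in WAT.

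Among 8587 other genes at 10 CPM or more in both depots, the gene most like Ccl2 across precursor cells was Ccl7 and the next was Nfkbia, with r of 0.37 in WAT and 0.34 in BAT, followed by Serpina3g at 0.35 and 0.27. The list for Ccl7 was Ccl2, Nfkbia (0.40 and 0.33) and Cxcl1. That for Cxcl1 was Ccl7, Ccl2 and Nfkbia (0.26 and 0.28), and that for Cxcl5 was Ccl2, Cxcl1 and Ccl7. Apart from Serpina3g, the nearest genes of these 4 members were each other and Nfkbia. Cxcl12 was nearest to Nfib (0.23 and 0.23) and then to Sfrp1. Cxcl14 was nearest to Igfbp6 (0.19 and 0.23), Timp3 and Mfap5. For Il6, with March3 and Cxcl1 among its nearest genes, and Cx3cl1, with Tgfb1, Col15a1 and Timp1, the mean r over depots was at most 0.122 and 0.103, which in counts this sparse is weak. Of 13 NF-kB targets and regulators, 9 were at 10 CPM or more in WAT and 10 in BAT, and their r with Ccl2 had medians of 0.19 and 0.17. Among them Relb and Sod2 were at 0.29 and 0.27 in WAT and 0.22 and 0.21 in BAT. For the immediate early genes, 10 in WAT and 9 in BAT, the medians were 0.02 and 0.04, and the highest r was that of Ier3, at 0.24 and 0.20. A median r of all genes with Ccl2 was not taken, so the medians of these lists have no such value beside them.

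Receptors of the members were compared between myeloid cells and precursors. Of 17 chemokine and IL-6 receptor genes, 6 reached 10 CPM in either group of each depot, and the other 11 did not. In both depots 5 of the 6 were past 2-fold higher in myeloid cells, where 18.7% of all genes were in WAT and 16.4% in BAT, and 1 was lower, as were 20.9% and 18.2% of all genes. Among the higher ones were Ccr1, Cxcr4, Cx3cr1 and Il6ra. Cxcr4, which binds Cxcl12, was at 17.7 in WAT and 22.5 in BAT myeloid cells and at 0.0570 and 0.159 in precursors. Cx3cr1, which binds Cx3cl1, was at 23.7 and 14.5 in myeloid cells and 2.26 and 2.26 in precursors. The classical receptors of the monocyte and neutrophil chemokines were hardly counted. Ccr2 had no UMI in WAT myeloid cells and 1 in BAT, a level of 0.468, while Ccr1, which also binds Ccl7, was at 28.4 and 48.2. Cxcr2 had no UMI in myeloid cells of either depot and was at 0.0895 and 0.0944 in precursors. The IL-6 receptor was divided between the cell types. Il6st was at 224 in WAT and 121 in BAT precursors and at 35.5 and 31.4 in myeloid cells, and Il6ra at 7.31 and 4.26 in precursors and 31.9 and 26.7 in myeloid cells. Ackr3, the scavenger of Cxcl12, was past 2-fold higher in bFAPLs than in other BAT precursors, at 13.0, and at 3.90 in wFAPLs.

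Other chemokines were taken from a list of the family. Of 26 found among 27 listed, 10 reached 10 CPM in WAT myeloid cells or precursors and 9 of these were past 2-fold higher in myeloid cells, and in BAT 8 of 9 were, against 18.7% and 16.4% of all genes. None was lower, against 20.9% and 18.2%. Ccl4, which attracts monocytes, was at 459 and 286 in myeloid cells, and Pf4 at 645 and 632. Ccl12, a close relative of Ccl2, was at 169 and 239 in myeloid cells and on 1 and 14 UMIs in all precursors. Within precursors, Ccl9 was past 2-fold lower in WAT than in BAT (-2.64) and higher in bCAPs, at 52.9, than in other BAT precursors (2.64). In these same cells Ccl2 and Ccl7 were at their lowest in BAT. Ccl11, the eotaxin, was past 2-fold higher in FAPLs of both depots, at 15.2 and 13.1.

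Genes known to act upstream of the members were listed as well. Of 11 upstream cytokines and sensors, 7 were at 10 CPM or more in each depot, with 5 past 2-fold higher in myeloid cells in WAT, 4 in BAT and 1 lower in each, where all genes had 18.7% and 16.4% higher and 20.9% and 18.2% lower. Tnf was at 34.3 and 45.9 in myeloid cells and on 1 and 5 UMIs in precursors, and Il1b had no UMI in either group. The receptor for interleukin-1, Il1r1, was the lower one, at 221 and 160.0 in precursors and 16.6 and 23.9 in myeloid cells, and the toll-like receptor Tlr4 was at 8.02 and 8.36 in precursors. Il33 was past 2-fold higher in wFAPLs (2.51) and bFAPLs (1.82), where Cxcl14 was highest. Il1rn, the interleukin-1 receptor antagonist, was past 2-fold higher in bCAPs (3.17), at 40.4. Of 11 genes of the IL-6 family and its signalling, 4 of 7 were past 2-fold lower and 1 higher in WAT myeloid cells, and 3 of 6 lower in BAT, beside the same shares of all genes. Osmr, the oncostatin M receptor, was at 94.0 and 64.7 in precursors, and Osm at 16.6 and 7.49 in myeloid cells.

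Few genes of the remaining lists were past 2-fold within precursors, and few of all genes were. Of all genes, 1.84% were past it between depots, and 0.617% to 1.94% in each direction of the 4 cluster comparisons. Lists this short cannot be told from all genes by such counts. Of 13 NF-kB genes, 10 were at 10 CPM or more in the depot comparison and none was past 2-fold. In wFAPLs 1 of 11, the adhesion molecule Icam1, was higher (1.34), and none of 10 was past 2-fold in bFAPLs, wCAPs or bCAPs. Between wFAPLs and bFAPLs 1 of 10 was higher in wFAPLs, where 1.69% of all genes were past 2-fold in either direction. No immediate early gene was past 2-fold between depots (of 10) or in any of the 4 cluster comparisons. Of 5 proteases acting on chemokines, 4 were at that level, none was past 2-fold between depots or in the 4 cluster comparisons, and Dpp4, which trims Cxcl12, was at 0.391 and 0.342. Among 7 other secreted inflammatory proteins, Saa3 was past 2-fold lower in wFAPLs (-2.58), and Csf1, the macrophage growth factor, was at 195 and 175 in precursors and 11.8 and 20.6 in myeloid cells. Between wCAPs and bCAPs, 1 of 4 of these proteins was higher in wCAPs and 1 lower, against 2.18% and 2.14% of all genes.

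Levels also differed with the cell cycle phase assigned to each precursor. Ccl2 was at 221 in G1, 266 in S and 167 in G2/M in WAT and at 198, 209.8 and 125 in BAT. Ccl7 was at 132, 132 and 104 in WAT and 164, 148 and 98.5 in BAT. Both were lowest in G2/M in both depots. Cxcl5 was at 50.7, 38.6 and 24.1 in WAT and 23.4, 28.7 and 17.9 in BAT. Cxcl12 did not share this, at 280.2, 225 and 275 in WAT and 162, 155 and 193 in BAT. Il6 lay between 5.12 and 7.42 over the phases in WAT and between 7.76 and 10.9 in BAT. Free RNA differing between phases was not tested.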

How the data were processed

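Primary stromal vascular cells from WAT and BAT of pups aged P0 (labels) or P1 (methods), 4 pups pooled per the study's methods, gave 1 droplet 3′ library per depot. The deposited values are UMI counts per gene and cell, which the authors made with Cell Ranger 7.0.1 on mm10, per the submitters' processing notes. Cells with 3900 to 7700 genes, 6000 to 60000 UMIs and a mitochondrial share of 1.7% to 5% were kept, as in the study's methods. This left 4407 of 5261 cells in WAT and 6137 of 7009 in BAT.

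Cells were clustered again (Seurat 5.3.0 in R 4.3.3, 2000 variable genes, 10 components, resolution 0.5). Clusters were called precursor, myeloid, glial or myogenic from marker lists. Precursor cluster names came from the authors' source data, in a copy that names 46.2% of the WAT and 33.6% of the BAT precursors and may be shortened. Names were carried over to other precursors by 15 nearest neighbours and matched 91.7% of held-out WAT and 88.0% of held-out BAT labels.

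UMIs were summed per cell group and given as CPM, with 95% intervals, exact Poisson for levels, Clopper-Pearson for shares of cells and conditional binomial for ratios. Where no UMI was found, the limit is 3 counts. A member or gene was counted as past 2-fold only at 10 CPM or more in either group. Summed totals in precursors were 122901443 UMIs in WAT and 169524786 in BAT. No doublet caller was run, and precursors holding 2 or more myeloid markers (1.69% in WAT, 4.04% in BAT) were left out as an alternative. Thinned values used 10000 UMIs per cell. The ratios and intervals were tested on simulated sums for wFAPLs against other WAT precursors. All 50 genes changed 2.5-fold were past 2-fold and none of 8645 unchanged genes was. The intervals held the simulated ratio for 92% of these 50 and 95.5% of the unchanged genes. The simulated sums had counting error only and no spread between cells. They therefore cannot show how often single cells move a real ratio past 2-fold. Python 3.11.15, numpy 2.4.6, scipy 1.17.1, pandas 2.3.3, scikit-learn 1.9.0 and matplotlib 3.10.9 were used.

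The members and gene lists were chosen with earlier results of these data known. Named beyond the members were listed genes at 10 CPM or more and past 2-fold in a comparison, receptors of members, and the 3 genes with the highest mean correlation to each member. Il1b, Tlr4, Csf1, Osmr, Osm, Relb, Sod2, Ier3 and Dpp4 were named after their values were seen. Some genes that these rules select are not reported here.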

Additional observations from a re-analysis of the deposited data

Results flagged for a closer look

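Cxcl12 lay on opposite sides of 0 in CAPs of the depots, by small amounts. Its log2 ratio to other precursors was -0.12 in wCAPs and 0.25 in bCAPs, and both counting intervals lay clear of 0. These intervals leave out the spread between cells. In thinned precursors the variance of Cxcl12 was 6.21 times its mean in WAT and 4.50 times in BAT. The intervals are therefore too narrow to settle the sign, which was not checked under the alternative runs. The difference between the depots was not tested, since each depot is 1 library.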

How the results depend on the processing

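No member past 2-fold in the main run reversed its direction under any alternative run. Ratios under 2-fold were not checked for reversal. Of the counts of members past 2-fold and of co-expressed pairs, 125 values under alternatives stayed within 1.5 times the reported count and 17 did not. Of the ratios and levels of single members, 480 values stayed within the counting interval of the reported value and 159 did not. At 1.5-fold, 2 members were higher in WAT than in BAT (Cxcl5 and Cxcl12), 2 were lower in wFAPLs (Ccl2 and Ccl7) and 4 were higher in bFAPLs (Cxcl5, Cxcl12, Cxcl14 and Il6). At 3-fold, 1 was higher in wFAPLs, 1 in bFAPLs, 0 were lower in wFAPLs and 0 in bCAPs. Cxcl5, 1 member, was past 2-fold between depots in G1 cells and again without the top 1% of cells. Cx3cl1, 1 member, was past 2-fold lower in WAT without mitochondrial and ribosomal protein genes. Its log2 ratio was already -1.24 in the main run, where it was uncalled because both depots were under 10 CPM. Without these genes the total of UMIs is smaller and every CPM is higher. Thinning left 1 member higher in wFAPLs (Cxcl14). In bFAPLs 1 member was left (Cxcl14) with the mean of each cell's CPM, without mitochondrial and ribosomal protein genes and with labels carried over, and 4 were higher in G1 cells. Without the top 1% of cells, 2 members were lower in BAT myeloid cells (Cxcl5 and Cxcl12). The cause of the other moves was not tested, other than for the changed fold itself. Leaving out precursors with 2 or more myeloid markers in the FAPL and CAP comparisons was chosen after seeing the data and left 2 members lower in bCAPs (Ccl2 and Cxcl14), with no other of these counts changed. Leaving out the cell with the most UMIs of a member on each side, also chosen after seeing the data, left 1 member higher in bFAPLs (Cxcl14, no longer Cxcl5) and 3 lower in BAT myeloid cells, and the highest cluster of each member stayed the same in all 16 cases. No paired analysis was possible because each depot has 1 library. Il6 and Cx3cl1 were under 10 CPM in precursors of both depots.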
